A study of Mus musculus with 16 samples.

Results

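The Cyp2c genes of the mouse encode a subfamily of cytochrome P450 enzymes. The 10 members described here are Cyp2c29, Cyp2c37, Cyp2c38, Cyp2c39, Cyp2c40, Cyp2c44, Cyp2c50, Cyp2c54, Cyp2c55 and Cyp2c70. Open chromatin was taken as the DNase hypersensitive sites (DHS) that overlapped a member gene or the 20 kb on either side of it in the mm9 gene annotation. Peaks of the 4 lists were merged into 1 region wherever they shared 1 bp or more, which gave 32 regions at the Cyp2c genes of 51482 regions in all. They are numbered DHS1 to DHS32 in chromosome order, all on chromosome 19 of mm9.

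Cyp2c enzymes sit in the membrane of the endoplasmic reticulum, take electrons from the reductase Por, and oxidise drugs, steroids, retinoids, bile acids and arachidonic acid. The genes arose by tandem duplication, so neighbouring copies share much of their sequence. In mouse liver several of them are transcribed at different levels in males and females under the control of pituitary growth hormone, and several are induced by foreign compounds through the nuclear receptors CAR and PXR. A DHS is a stretch of chromatin that DNase I cuts readily, as promoters and enhancers in use are cut.

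Nuclei came from the livers of 8-week-old mice of 2 strains, C57BL/6J (B6), the strain of the reference genome, and CAST/EiJ (CAST), a wild-derived strain. The 4 groups were male B6, female B6, male CAST and female CAST, with 4 libraries each, 16 libraries in all, and every nuclei sample was digested with 32 U of DNase I. The labels name no transgene and no drug. The 4 libraries of a group were merged before peaks were called, and the files used here hold 1 list for each group. The spread between mice was therefore not measured here, and every comparison below is a description without a test.

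The B6 lists held 38751 peaks in males and 26271 in females, and the CAST lists 39562 and 24888. The genome-wide background was 15.4, 13.9, 14.3 and 7.94 fragments per position in the same order, so the female CAST list was the shallowest. At that background the lowest fold enrichment called was 1.90, 1.94, 1.90 and 2.24. Of 5 hepatocyte markers, between 4 and 5 had a peak within 1 kb of a start site in each list, with Apoa1 the one absent in both female lists. None of 4 Kupffer cell or 3 lymphocyte markers had one. Of 4 sinusoidal endothelial markers, 4 had a peak in B6 males, 2 in B6 females and 1 in either CAST list, of 4 stellate markers 1, 1, 1 and 0, and of 4 bile duct markers 1 in each list (Sox9). The part of these other cells in the differences below was not tested.

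Several of the 32 regions were copies of each other, and 2 sets of sequences show this. Each sequence is from the mm9 reference, which is the B6 genome, and variants of CAST are not included. The first set begins with 200 bases around the summit of DHS10, upstream of Cyp2c39, followed by the most similar stretch at DHS5, upstream of Cyp2c29, at DHS8, beyond the 3′ end of Cyp2c29, and upstream of Cyp2c38, where no list held a peak. Capitals mark bases that are substituted or inserted relative to the first sequence, and bases missing from it are not marked.
DHS10, chr19:39584158-39584357 (+): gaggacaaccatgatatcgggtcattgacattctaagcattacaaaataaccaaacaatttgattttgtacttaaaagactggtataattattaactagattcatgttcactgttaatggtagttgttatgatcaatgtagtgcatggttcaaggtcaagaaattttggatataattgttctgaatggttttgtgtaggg
DHS5, chr19:39360219-39360417 (+): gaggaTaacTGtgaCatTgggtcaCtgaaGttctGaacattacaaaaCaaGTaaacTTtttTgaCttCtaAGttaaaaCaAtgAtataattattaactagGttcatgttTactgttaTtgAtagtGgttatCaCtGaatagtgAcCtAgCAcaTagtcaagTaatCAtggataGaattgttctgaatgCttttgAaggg
DHS8, chr19:39420667-39420859 (+): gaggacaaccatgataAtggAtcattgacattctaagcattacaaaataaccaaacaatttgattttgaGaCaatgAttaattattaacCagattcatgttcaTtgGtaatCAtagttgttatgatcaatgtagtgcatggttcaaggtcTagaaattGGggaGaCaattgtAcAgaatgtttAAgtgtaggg
Upstream of Cyp2c38, chr19:39538551-39538750 (-): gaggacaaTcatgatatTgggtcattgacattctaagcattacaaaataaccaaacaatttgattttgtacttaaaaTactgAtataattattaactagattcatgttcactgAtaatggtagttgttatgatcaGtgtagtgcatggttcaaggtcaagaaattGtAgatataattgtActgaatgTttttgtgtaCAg

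The second set holds DHS16, between Cyp2c54 and Cyp2c50, and its copy at DHS13, upstream of Cyp2c37. It is shown because DHS16 had the highest male to female ratio of fold enrichment among the Cyp2c regions found in both sexes, in both strains. Capitals mark the same as in the first set.
DHS16, chr19:40163116-40163315 (+): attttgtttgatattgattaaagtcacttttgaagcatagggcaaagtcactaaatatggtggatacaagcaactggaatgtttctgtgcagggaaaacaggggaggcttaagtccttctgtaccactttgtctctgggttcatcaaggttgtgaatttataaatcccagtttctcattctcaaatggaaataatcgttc
DHS13, chr19:40064201-40064399 (+): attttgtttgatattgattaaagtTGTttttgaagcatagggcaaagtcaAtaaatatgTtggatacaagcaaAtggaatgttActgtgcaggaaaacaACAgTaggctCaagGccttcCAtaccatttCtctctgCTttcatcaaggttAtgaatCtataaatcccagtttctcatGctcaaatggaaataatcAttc

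The last sequence is the summit of DHS1, upstream of Cyp2c55, a region without such a copy among the 32. It is shown because DHS1 was higher in CAST than in B6 in both sexes, and it held no match to the motifs described further below.
DHS1, chr19:39073040-39073239 (+): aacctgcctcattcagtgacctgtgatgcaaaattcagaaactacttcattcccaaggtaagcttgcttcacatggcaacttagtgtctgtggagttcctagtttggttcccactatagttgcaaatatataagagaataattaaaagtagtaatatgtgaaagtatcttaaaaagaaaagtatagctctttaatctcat

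The Cyp2c DHS were unevenly spread over the genes. Cyp2c44 had 11 regions, Cyp2c29 7, Cyp2c70 5, Cyp2c39 3, and Cyp2c37, Cyp2c50, Cyp2c54 and Cyp2c55 had 2 each. The 2 regions of Cyp2c50 and Cyp2c54 were the same ones, since both lie between these neighbours. Cyp2c38 and Cyp2c40 had none, and neither had any of the 5 other protein-coding genes of the family in the annotation, Cyp2c65, Cyp2c66, Cyp2c67, Cyp2c68 and Cyp2c69. Of all 22350 protein-coding genes, 25% had no region in a window drawn in the same way. Pooled over the joined windows, which cover 801 kb, the density was 3.99 regions per 100 kb. Without the Cyp2c44 window it was 2.85, from 21 regions over 737 kb. The median density of single windows over all protein-coding genes was 3.25. That is a different measure from a pooled density, so no direction is read from the 2. Of the 32 regions, 15 (46.9%) lay more than 2.5 kb from any start site, against 67.1% of all regions.

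**Figure D1:**
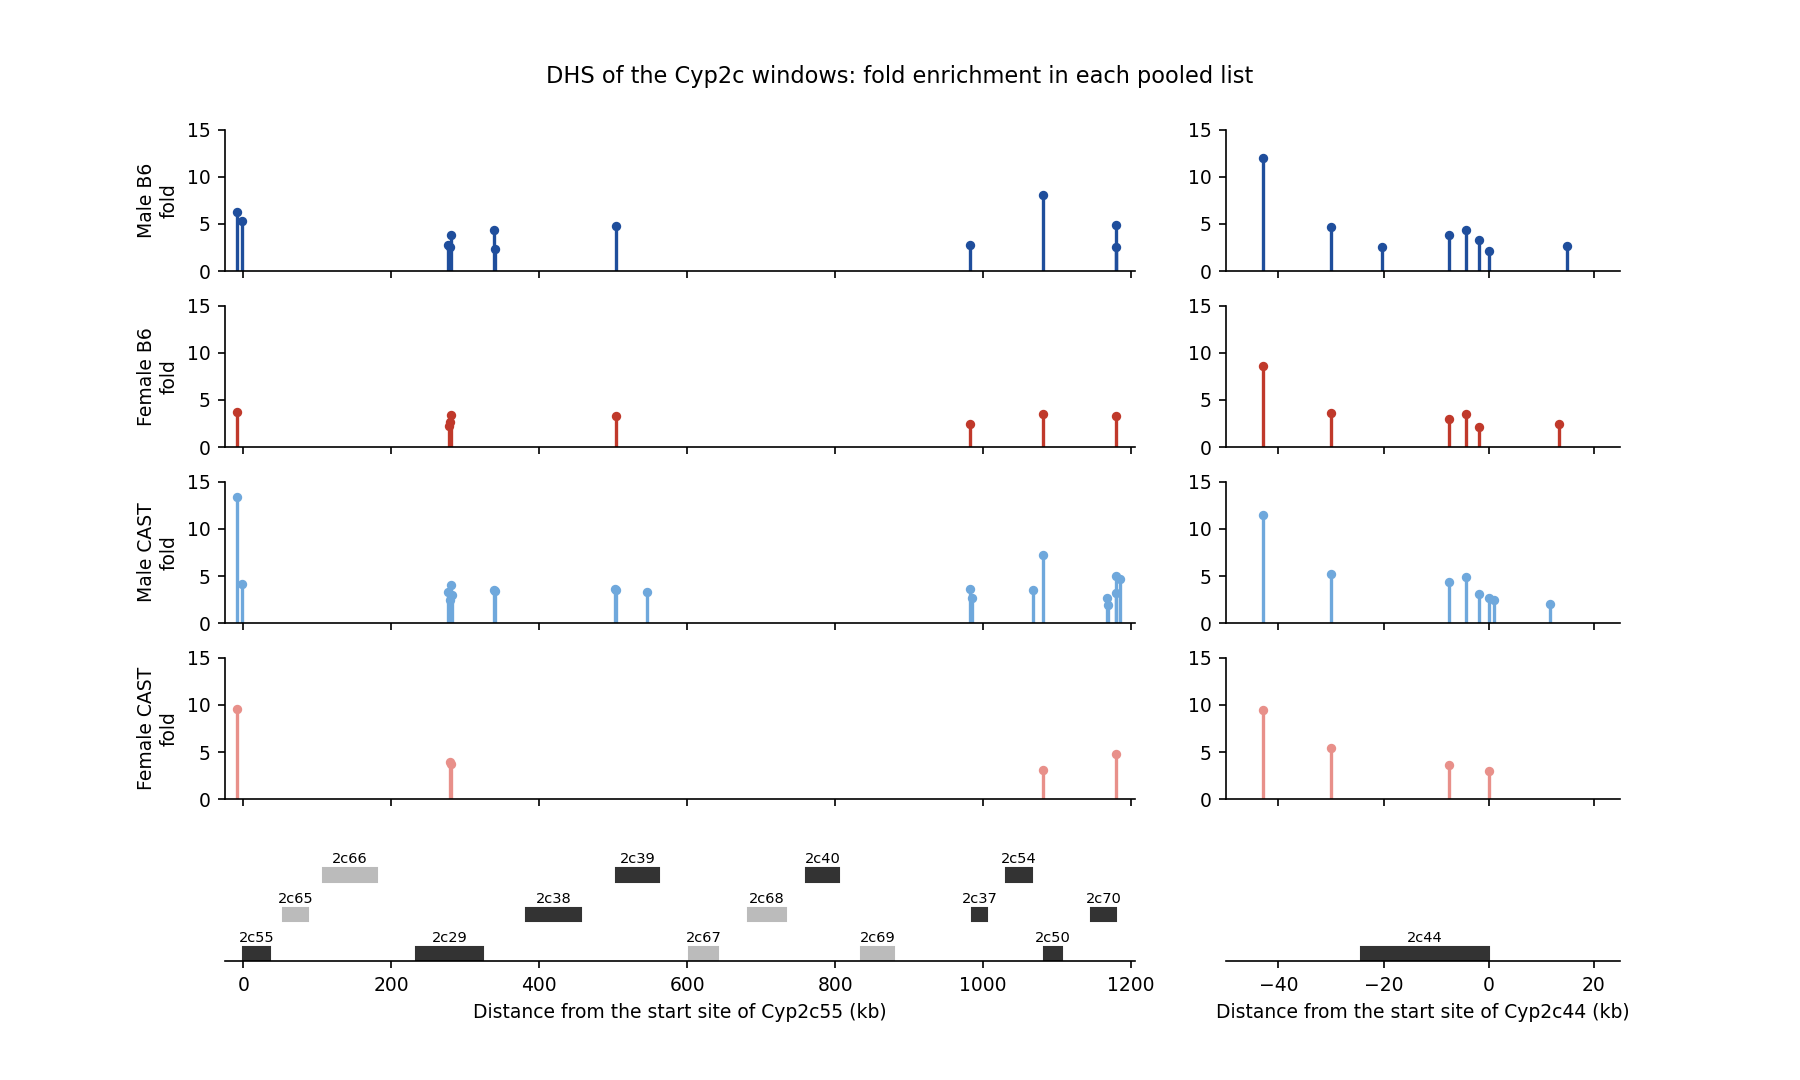
Fold enrichment (vertical axis) of each Cyp2c DHS in each of the 4 pooled lists along chromosome 19, as distance in kb in chromosome direction from the start site of Cyp2c55 (left) and of Cyp2c44 (right). Each stem is 1 peak, dark bars are the member genes and light bars the other 5 genes of the family. The stretch from Cyp2c67 to Cyp2c69, with Cyp2c40 in it, held no peak in any list.

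The lists differed in size and in how many of the regions they held. Male CAST held 28 of the 32 (87.5%, against 76.2% of all regions), male B6 20 (62.5%, against 74.6%), female B6 14 (43.8%, against 49.96%) and female CAST 9 (28.1%, against 47.3%). With every list cut to its 24888 strongest peaks, male B6 held 12 and female B6 14, so the order of the sexes in B6 turned, while male CAST held 20 and female CAST 9. The median fold enrichment of these peaks was 3.51, 3.82, 3.28 and 4.0 in that order, against 3.74, 3.49, 3.28 and 4.06 over all peaks of the lists. Their median width was 419.5, 507, 408 and 486 bp, below the 589, 596, 554 and 531 bp over all peaks. At the summits the median number of overlapping fragments was 63, 83.5, 50 and 40.

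Across the lists, 8 of the 32 regions (25%) were found in all 4, against 35.6% of all regions. The male CAST list alone held 10 (31.3%), against 15.2% of all regions. Both male lists and no female list held 5 (15.6%, against 9.38%), and the 2 B6 lists with male CAST held 4 (12.5%, against 6.85%). Male B6 alone held 2 (6.25%, against 14.2%) and female B6 alone 2 (6.25%, against 3.13%), and 1 was missing in female B6 only (3.13%, against 4.73%). No region was found in both female lists alone, in both B6 lists alone or in both CAST lists alone, patterns that held 0.0622%, 3.32% and 3.62% of all regions.

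**Figure D2:**
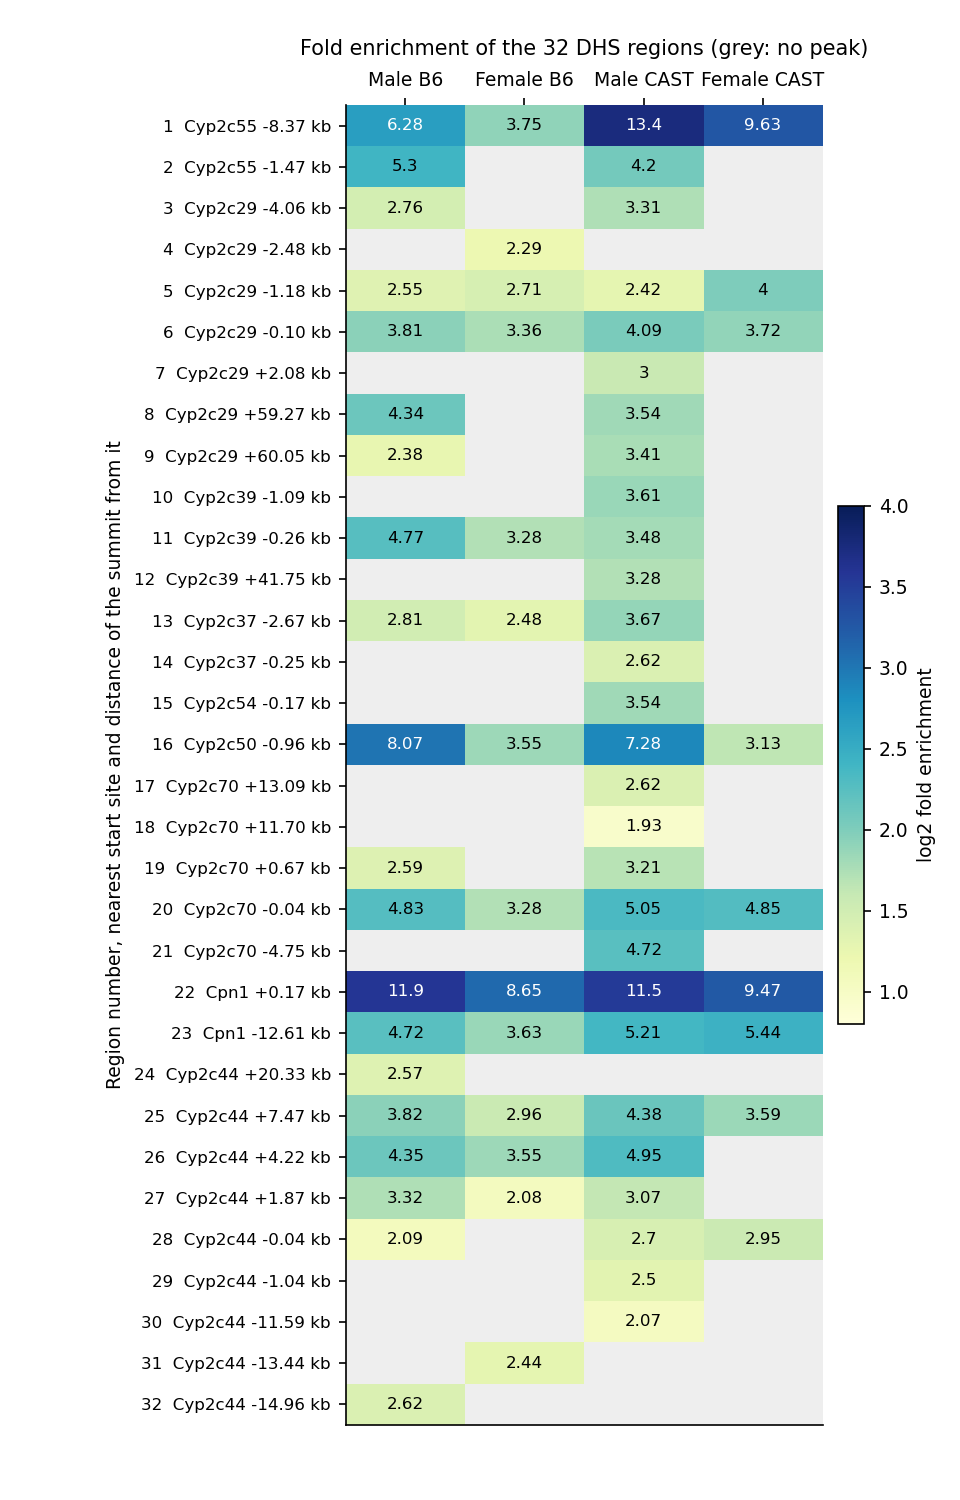
Fold enrichment of the 32 Cyp2c DHS (rows, numbered in chromosome order, with the nearest start site and the distance of the summit from it in kb, negative upstream) in the 4 pooled lists (columns). The colour is log2 fold enrichment and grey cells had no peak. 8 rows are filled in all 4 columns, and 10 are filled for male CAST alone.

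Cyp2c29, Cyp2c38 and Cyp2c39 are neighbours with similar upstream sequence. Cyp2c29 is an abundant liver enzyme induced by phenobarbital, Cyp2c39 hydroxylates retinoic acid, and Cyp2c38 oxidises arachidonic acid. Cyp2c29 lies at chr19:39315441-39405189 on the plus strand, where 1 long transcript model starts far upstream of the transcript start at position 39361601 that carries the DHS. Cyp2c39 lies at chr19:39585352-39643019 on the plus strand and Cyp2c38 at chr19:39464046-39537565 on the minus strand.

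The Cyp2c29 promoter DHS (DHS6, chr19:39361206-39361792) spans the start at 39361601 and was found in all 4 lists. Its fold enrichment in B6 was 3.81 in males and 3.36 in females, from 104 and 64 fragments at the summit, and in CAST it was 4.09 and 3.72, from 102 and 39. These values lay close together in all 4 groups.

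The neighbouring DHS5 (chr19:39360070-39360622), 1.18 kb upstream of the same start, lies in an intron of the long model. In B6 its fold enrichment was 2.55 in males and 2.71 in females, and in CAST 2.42 and 4.0. Among the Cyp2c regions found in both sexes it had the lowest male to female ratio of fold enrichment, in both strains. Log2 ratios were centred on the median of all regions found in both lists compared, which removes any shift common to those regions. The centred log2 ratio of male over female at DHS5 was -0.49 in B6 and -0.98 in CAST, and 5.02% and 0.14% of all shared regions had a ratio as low. Without centring it was -0.09 in B6 and -0.72 in CAST. The counts behind it were small: 66 fragments (95% exact Poisson interval 51.0 to 84.0) in males and 48 (35.4 to 63.6) in females of B6, and 57 (43.2 to 73.9) and 40 (28.6 to 54.5) in those of CAST. Measured as summit fragments over the genome-wide background of each list, the same ratio was -0.42 and -0.81, and in B6 DHS13 was then lower, at -0.56. The intervals here and further below cover counting error only, not the spread between mice.

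Other DHS of Cyp2c29 were found in fewer lists. DHS3 (chr19:39357204-39357714), 4.06 kb upstream, had 2.76 in male B6 and 3.31 in male CAST and no peak in females. DHS4 (chr19:39358795-39359190) was found in female B6 alone at 2.29, and DHS7 (chr19:39363579-39363839), in an intron just inside the gene, in male CAST alone at 3.0. Beyond the 3′ end of the gene, in sequence with no annotated protein-coding gene, DHS8 (chr19:39420536-39421044) had 4.34 in male B6 and 3.54 in male CAST. DHS9 (chr19:39421609-39422043), in such sequence too, had 2.38 and 3.41. Pseudogenes and non-coding genes were not looked for there. Neither had a peak in a female list.

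The pair DHS8 and DHS9 repeated the arrangement upstream of Cyp2c39. The Cyp2c39 promoter DHS (DHS11, chr19:39584863-39585373) had 4.77 and 3.28 in males and females of B6 and 3.48 in CAST males, with no peak in CAST females. DHS10 (chr19:39584147-39584401), 1.09 kb upstream of the same start, was found in male CAST alone at 3.61. Compared over 200 bases, the summit of DHS10 was 86.0% identical to DHS8 and 75.5% to DHS5, and the summit of DHS11 was 86.5% identical to DHS9 and 77.0% to DHS6. Over all 958 ordered pairs of Cyp2c regions placed against each other in the same way the median identity was 54.5%, and 95% of pairs were at or below 57.5%. The third region of Cyp2c39, DHS12 (chr19:39626888-39627347), is intronic and was found in male CAST alone at 3.28.

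Cyp2c38 carried a copy of this pair as well, and no DHS. The summit of DHS10 was 94% identical over 200 bases to a stretch 1.09 kb upstream of the Cyp2c38 start, printed above, and the summit of DHS11 was 86.0% identical to chr19:39537699-39537901, just upstream of that start. Little of these stretches was repeated sequence. Of the 151 stretches of 50 bases, the read length, in the DHS10 copy upstream of Cyp2c38, 10 (6.62%) occurred more than once in mm9, the same number as in DHS10 itself, and of the 154 in the other copy 0 did. In the 2 kb around the Cyp2c38 start 0.717% were repeated. DHS3 had a similar counterpart without a peak, 89.5% identical over 200 bases, at chr19:39182993-39183193 upstream of Cyp2c66.

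Cyp2c55 oxidises arachidonic acid and is induced by foreign compounds in liver. The gene lies at chr19:39081509-39117183 on the plus strand, and its 2 DHS were both upstream of the start. DHS1 (chr19:39072546-39073662), 8.37 kb upstream, had a fold enrichment of 6.28 in males and 3.75 in females of B6, from 114 and 55 fragments (95% intervals 94 to 137 and 41.4 to 71.6). In CAST it had 13.4 and 9.63, from 294 and 98 fragments (261 to 330 and 79.6 to 119). Both CAST lists were above both B6 lists. The centred log2 ratio of CAST over B6 was 1.02 in males and 1.11 in females, above 98.6% and 99.5% of the shared regions, and DHS1 was the one Cyp2c region past 2-fold in any comparison of shared regions. The male value was just past 2-fold, and centring on regions over 2.5 kb from a start site put it at 0.98.

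DHS2 (chr19:39079655-39080489), 1.47 kb upstream of Cyp2c55, had 5.30 in male B6 and 4.20 in male CAST, from 90 and 63 fragments, and no peak in either female list. It had the highest fold enrichment in male B6 of the 5 regions found in both male lists alone. Against the lowest fold enrichment that the female lists called at genome-wide background, and after the same centring, it was at least 2.07-fold higher in males than in females in B6 and at least 1.58-fold in CAST. This bound takes it that no other filter of the caller removed a female peak there. For the other regions found in both male lists alone the bounds were lower. In B6 they were 1.08 (DHS3), 1.69 (DHS8), 0.93 (DHS9) and 1.01 (DHS19), and in CAST 1.24, 1.33, 1.28 and 1.21 in the same order. With a bound near or below 1, a missing peak need not be a lower value.

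Cyp2c37, Cyp2c50 and Cyp2c54 are close relatives that oxidise arachidonic acid to epoxides and hydroxy acids. They lie at chr19:40066909-40086738 (plus strand), chr19:40164178-40188440 (plus) and chr19:40112431-40148301 (minus). DHS16 (chr19:40162928-40163433), 0.962 kb upstream of Cyp2c50, had a fold enrichment of 8.07 in males and 3.55 in females of B6, from 131 and 52 fragments, and of 7.28 and 3.13 in CAST, from 110 and 27. Both male lists were above both female lists. The centred log2 ratio of male over female was 0.79 in B6 and 0.97 in CAST, both under 2-fold, and above 99.3% and 99.7% of the shared regions. Without centring it was past 2-fold in both, at 1.19 and 1.22. Measured as summit fragments over the genome-wide background of each list, the same ratio was 0.45 and 0.70, and in B6 DHS27 was then higher, at 0.65.

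The copy of DHS16 at Cyp2c37, DHS13 (chr19:40064014-40064462), was 88.0% identical to it over 200 bases but did not share its values. DHS13 had 2.81 and 2.48 in males and females of B6 and 3.67 in CAST males, with no peak in CAST females, and its centred log2 ratio of male over female in B6 was -0.22. All 50-base stretches of DHS13 and DHS16 were unique in mm9.

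Peaks at the promoters of this subgroup were found in 1 list each. DHS14 (chr19:40066491-40066770), which ends 139 bp before the Cyp2c37 start, was found in male CAST alone at 2.62. DHS15 (chr19:40148358-40148623), which ends 57 bp from the Cyp2c54 start, was found in male CAST alone at 3.54. The summit of DHS15 was 81.5% identical to a stretch at DHS14. No list held a peak over the start of Cyp2c50.

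Cyp2c70 makes muricholic acids, the hydroxylated bile acids typical of mouse. The gene lies at chr19:40227843-40261823 on the minus strand. Its promoter DHS (DHS20, chr19:40261565-40262188) was found in all 4 lists, with 4.83 and 3.28 in males and females of B6 and 5.05 and 4.85 in those of CAST, and it held 1 match to the HNF4A motif. DHS19 (chr19:40260712-40261250), in an intron 0.673 kb inside the gene, had 2.59 in male B6 and 3.21 in male CAST and no peak in females. The other 3 were found in male CAST alone. DHS21 (chr19:40266339-40266748), 4.75 kb upstream, had 4.72 from 71 fragments, and against the lowest fold enrichment called in male B6 this was at least 2.36-fold higher in CAST males after centring. Of its 50-base stretches 25.5% were repeated in mm9, but for 0% of read pairs 200 bases long were both ends repeated. DHS17 and DHS18, both intronic (chr19:40248589-40248835 and chr19:40250071-40250326), had 2.62 and 1.93, the latter close to the lowest fold enrichment the list called.

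Cyp2c44, an epoxygenase of arachidonic acid, lies apart from the other members at chr19:44079512-44103737 on the minus strand. Its promoter DHS (DHS28, chr19:44103473-44103976) had 2.09 in B6 males and no peak in B6 females, and in CAST it had 2.70 in males and 2.95 in females. DHS25 (chr19:44095914-44096595), over an exon, was found in all 4 lists at 3.82 and 2.96 in males and females of B6 and 4.38 and 3.59 in those of CAST, and it held matches to the FOXA and C/EBP motifs. In introns nearer the start, DHS26 (chr19:44099256-44099853) had 4.35 and 3.55 in males and females of B6 and 4.95 in CAST males. DHS27 (chr19:44101699-44102124) had 3.32, 2.08 and 3.07 in the same order, and neither had a peak in CAST females. On the bound used for DHS2, DHS26 was at least 1.86-fold higher in males than in females of CAST. The same bound was 1.15 for DHS27 in CAST and 0.82 for DHS28 in B6, so the missing female peak of DHS28 need not be a lower value.

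The highest values of the Cyp2c44 window belonged to a neighbour. DHS22 (chr19:44059871-44061340) spans the start of Cpn1, which encodes the catalytic chain of the plasma enzyme carboxypeptidase N, and had 11.9 and 8.65 in males and females of B6 and 11.5 and 9.47 in those of CAST. DHS23 (chr19:44073358-44074276), in the sequence between Cpn1 and Cyp2c44, had 4.72, 3.63, 5.21 and 5.44 in the same order. The remaining regions of this window, DHS24, DHS29, DHS30, DHS31 and DHS32, were found in 1 list each at 2.07 to 2.62, and DHS30, DHS31 and DHS32 lie in Erlin1.

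Cyp2c40, which hydroxylates arachidonic acid, had no DHS in any list, and much of its sequence is repeated in the family. The gene lies at chr19:39841561-39887304 on the minus strand. Reads were kept only where they mapped to a single place, and 44.3% of its 50-base stretches occurred more than once in mm9, as did 38.4% of those in the 2 kb around its start. Of its stretches 27.4% were shared with Cyp2c68 and 19.5% with Cyp2c69. The values for the other genes without a DHS were 47.3% (Cyp2c68), 42.8% (Cyp2c66), 38.3% (Cyp2c69), 34.8% (Cyp2c67), 31.2% (Cyp2c38) and 11.6% (Cyp2c65), and for the genes with a DHS they ran from 5.11% (Cyp2c44) to 28.9% (Cyp2c50). These values are over the genes alone. Over windows with 20 kb on each side, the Cyp2c genes ran from 2.67% (Cyp2c44) to 46.7% (Cyp2c68), and the median of all protein-coding windows of chromosome 19 was 4.04%. Reads came in pairs, and for pairs 200 bases long with both ends repeated the order was less separate: 21.5% in Cyp2c40, from 5.06% (Cyp2c65) to 31.3% (Cyp2c66) in the other genes without a DHS, and from 0.637% (Cyp2c44) to 19.3% (Cyp2c29) in those with one. Cyp2c67 (14.97%) and Cyp2c69 (16.3%), without a DHS, were below Cyp2c29. How far unmapped reads hid a DHS was not tested, and fewer open nuclei and less open chromatin per nucleus cannot be told apart in these pooled livers. CAST reads were mapped to a CAST genome, which was not examined here for repeats.

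**Figure D3:**
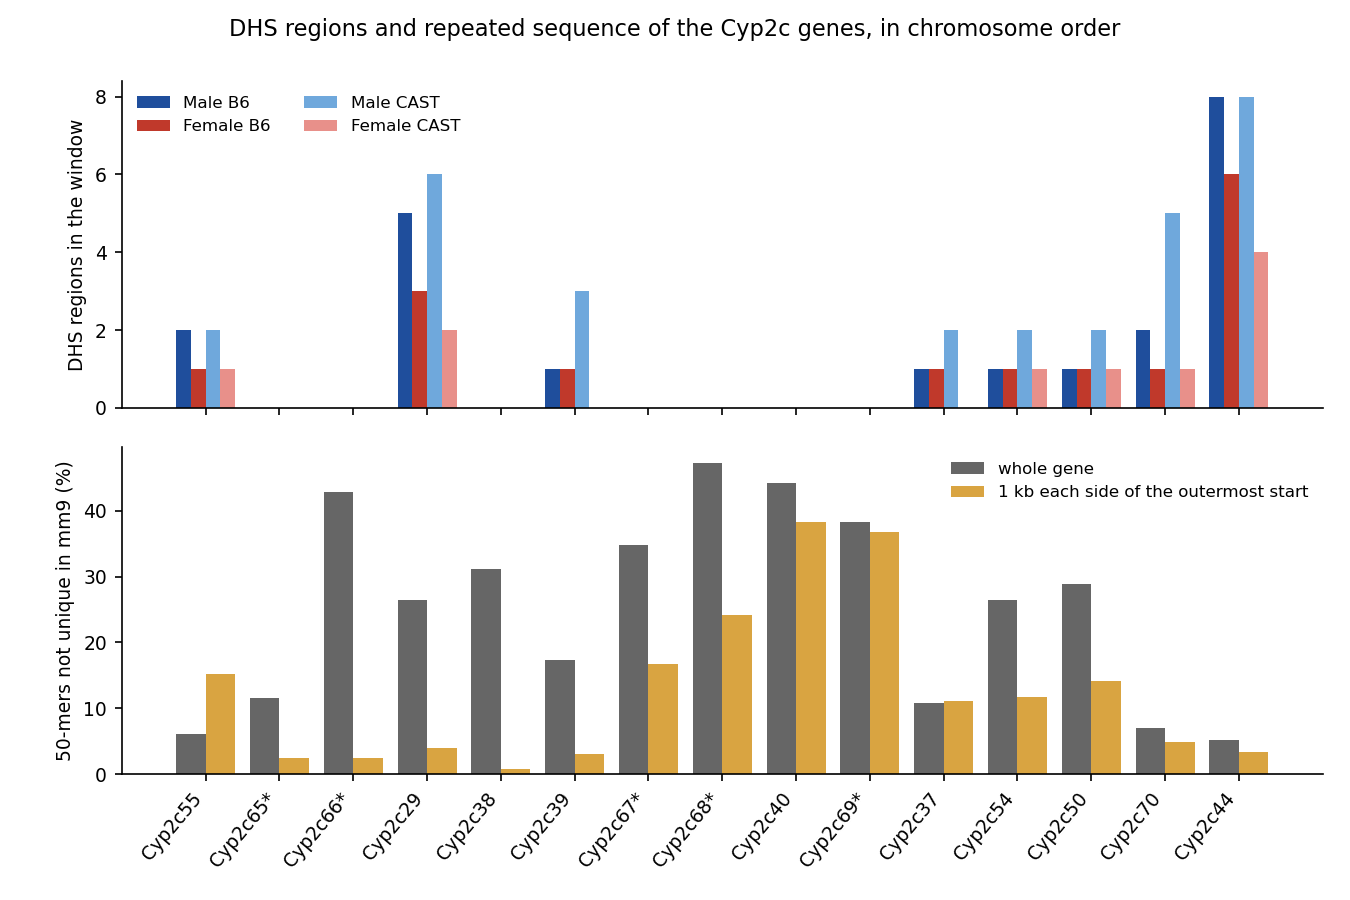
Number of DHS regions in the window of each Cyp2c gene in the 4 pooled lists (top, counts) and percent of 50-base stretches of mm9 that occur more than once, over the gene and in the 2 kb around the outermost start of its models (bottom), in chromosome order; stars mark the 5 genes of the family that are no members. The 7 genes without a DHS include Cyp2c65, at 11.6%, and the 8 with one reach 28.9% (Cyp2c50).

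The first comparison was between the sexes, which differ in liver metabolism of drugs and steroids. In B6, 12 of the 22 regions of either list were in both (54.5%, 95% exact binomial interval 32.2 to 75.6), against 58.4% of all regions. Male B6 alone of the 2 held 8 of the 22, with 36.4% of all regions found in that list only, and female B6 alone held 2, with a background of 5.13%. Among stronger peaks (−log10 q of 15.7 or more), with 12 regions left in males and 2 in females, the share in both was 16.7%. The share over all regions at that threshold is not given here, so this share has no background beside it. In CAST, 9 of 28 were in both (32.1%, 15.9 to 52.4), against 55.8% of all regions. Male CAST alone held 19 of the 28, with a background of 40.3%, and female CAST alone held 0, with a background of 3.9%. Female CAST also had the fewest fragments, and the intervals take neighbouring and copied regions as separate, so they are no test against the share of all regions.

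Among the regions found in both sexes, none passed 2-fold after centring, and DHS16 alone did without it, in both strains. Of 12 in B6, 0 were at least 2-fold higher in males (background 0.186%) and 0 at least 2-fold lower (background 0.0338%), and of 9 in CAST likewise 0 and 0 (backgrounds 0.255% and 0.114%). The median centred log2 ratio of male over female was 0.02 in B6 and -0.11 in CAST, and both signs turned under other settings. Without centring, the median over all shared regions was 0.40 in B6 and 0.25 in CAST, which is the shift that centring removed. By fold enrichment DHS16 was highest and DHS5 lowest in both strains. By summit fragments over genome-wide background this held in CAST, while in B6 DHS27 was highest and DHS13 lowest.

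The second comparison was between the strains. In males, 18 of 30 regions were in both lists (60.0%, 40.6 to 77.3), against 60.0% of all regions. Male CAST alone held 10 of the 30 (background 20.9%) and male B6 alone 2 (background 19.1%). In females, 8 of 15 were in both (53.3%, 26.6 to 78.7), against 59.1%. Among stronger peaks, with 2 regions left in female B6 and 4 in female CAST, the share was 20%. The share over all regions at that threshold is not given here. The lists as given had 1 in female CAST alone (background 18.3%) and 6 in female B6 alone (background 22.6%). The single region found in female CAST and not in female B6 was the Cyp2c44 promoter DHS28, with a bound of 1.28-fold on the measure used for DHS2. The 6 found in female B6 and not in female CAST were DHS4, DHS11, DHS13, DHS26, DHS27 and DHS31. In female B6, DHS27 had 2.08, below the lowest fold enrichment that female CAST called at genome-wide background (2.24). DHS4 (2.29) and DHS31 (2.44) were just above it.

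Of the 18 regions in both male lists, 1 was at least 2-fold higher in CAST (background 1.51%) and 0 at least 2-fold lower (background 0.801%), and of the 8 in both female lists, 1 was higher (background 0.785%) and 0 lower (background 0.317%). The region was DHS1 in both sexes. The median centred log2 ratio of CAST over B6 was 0.05 in males and 0.17 in females, and here too both signs turned under other settings. The lowest ratio in males was -0.53 at the Cyp2c39 promoter DHS11, and in females -0.43 at DHS16.

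**Figure D4:**
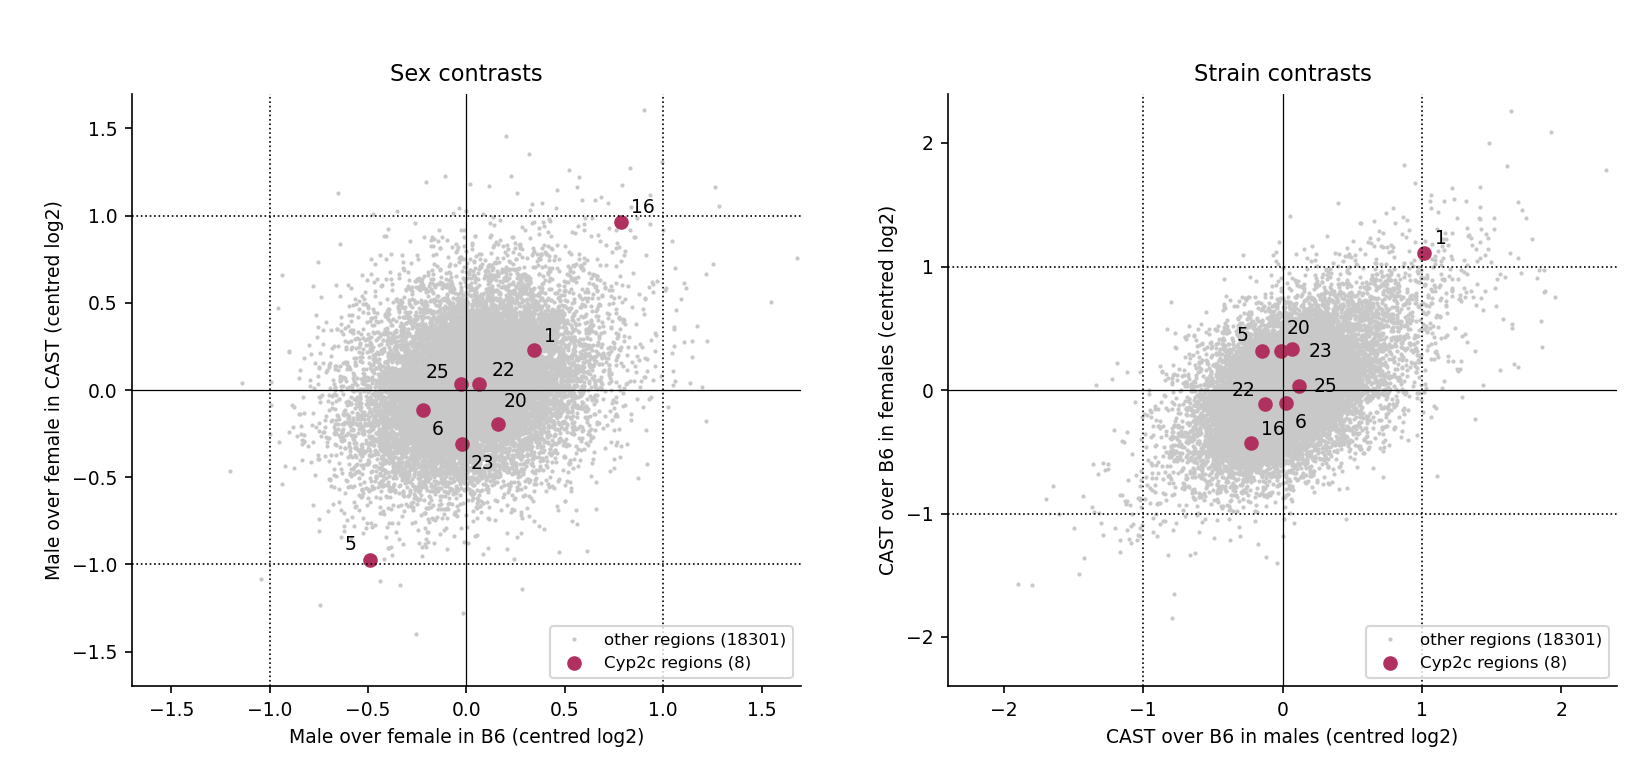
Centred log2 ratio of fold enrichment for the regions found in all 4 lists: male over female in B6 (x) against CAST (y) on the left, and CAST over B6 in males (x) against females (y) on the right. Grey points are the other 18301 regions, the 8 Cyp2c DHS are numbered, and dotted lines mark 2-fold. DHS16 lies at 0.79 and 0.97, DHS5 at -0.49 and -0.98, and DHS1 at 1.02 and 1.11 on the right; the 2 axes of a panel share no list.

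Sequence motifs of liver factors were sought on both strands in 300 bases centred on each summit. STAT5, which carries the growth hormone signal, was searched as TTCNNNGAA and matched in 2 of the 32 regions (6.25%, against 10.2% of all regions). HNF4A was searched as CAAAGTCCA and matched in 2 (6.25%, against 1.68%), DHS20 and DHS26. FOXA, as TGTTTAC, matched in 4 (12.5%, against 6.59%), HNF1, as GTTAAT, in 6 (18.8%, against 10.5%), the site of HNF6 and CUX2, ATCGAT, in 1 (3.13%, against 1.82%) and C/EBP, as TTGCGNAA, in 1 (3.13%, against 1.11%). The FOXA matches were in DHS5, DHS9, DHS11 and DHS25, of which DHS9 and DHS11 are copies of each other, and the HNF1 matches included DHS5, DHS8 and DHS10, also copies. DHS1, DHS13 and DHS16 held none of these letters in the window.

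Partner enzymes of the Cyp2c proteins had DHS in every list. Por, the electron donor, had 13 regions, of which 9 were in all 4 lists, and the electron carriers Cyb5 (Cyb5a) and Cyb5b had 9 each, with 6 and 2 in all 4. The cytochrome b5 reductase Cyb5r3 had 6, with 4 in all 4 lists. Ephx1 and Ephx2, epoxide hydrolases that act on P450 products, had 10 and 8, with 4 and 5 in all 4 lists. Of all regions of the genome, 35.6% were in all 4 lists.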

How the data were processed

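Each liver nuclei sample was digested with DNase I and sequenced as paired 50-base reads. According to the study's methods, uniquely mapped reads were aligned with Bowtie2, to mm9 for B6 and to a CAST genome for CAST with peaks then converted to mm9, and peaks were called with MACS2. The 4 libraries of a group were merged. The deposited lists give the authors' pooled fold enrichment (a ratio over local background), a −log10 p-value and q-value, and a summit for each peak. Summit fragments and local background were recovered from the fold and p-value; between 99.86% and 99.96% of pileups per list came out whole within 0.02. Regions, sharing, centred log2 ratios, 50-base uniqueness and motifs were computed with Python 3.11.15, numpy 2.4.6, pandas 2.3.3, scipy 1.17.1 and edlib 1.3.9.post1, and tested on simulated data. Of the peaks of a list in a region, the highest was used. Genes came from the GENCODE annotation of mm9.

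The named regions were those nearest each start site, the 10 with the highest mean rank, up to 3 past 2-fold in each direction of each comparison, and all found in 1 sex or 1 strain alone; others are given briefly. The copied sequences were chosen after their values were seen. The members and lists were chosen with earlier results of these data known. Alternatives varied the joining overlap, window, threshold, list size, centring, measure and inclusion of Cyp2c44. The sequences of some regions are not reported here.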

Additional observations from a re-analysis of the deposited data

Results flagged for a closer look

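Of the 8 Cyp2c DHS found in all 4 lists, 4 (50%) had a contrast of opposite sign in 2 groups on the centred log2 scale, against 56.6% of all 18309 such regions. With 1 pooled list a group none of these differences was tested. At DHS5, upstream of Cyp2c29, CAST over B6 was -0.15 in males and 0.31 in females, a difference of 0.46, and it kept opposite signs without centring (-0.07 and 0.56). The other contrasts had 1 sign without centring. At the Cyp2c70 promoter DHS20, CAST over B6 was -0.01 in males and 0.32 in females, a difference of 0.33 (0.06 and 0.56 without centring), and male over female was 0.16 in B6 and -0.19 in CAST, a difference of -0.35 (0.56 and 0.06). At the Cyp2c29 promoter DHS6, CAST over B6 was 0.03 in males and -0.10 in females, a difference of -0.13 (0.10 and 0.14). At DHS25, within Cyp2c44, male over female was -0.03 in B6 and 0.03 in CAST, a difference of 0.060 (0.37 and 0.28).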

How the results depend on the processing

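Results changed mainly with the window and the peak threshold. With gene bodies alone the lists held 11 (male B6), 8 (female B6), 14 (male CAST) and 5 (female CAST) regions, and with this window or with 5 kb on each side DHS1 fell outside, so 0 regions were past 2-fold in CAST males or females. With peaks at a −log10 q of 15.7 or more, the median of all peaks, the lists held 12, 2, 12 and 4 regions, the share found in both sexes of B6 was 16.7%, the share in both female lists 20%, and 0 regions were past 2-fold in CAST females. The shares over all regions at this threshold are not given here. With lists of equal size male B6 held 12 and female B6 14, which turns their order. Without Cyp2c44 male B6 held 12, female B6 8 and female CAST 5. Without centring, the median male over female in B6 was 0.42 and 1 region, DHS16, was past 2-fold in each strain, at 1.19 and 1.22, while DHS5 moved from -0.49 to -0.09 in B6. Centred on promoter-distal regions, 0 regions were past 2-fold in CAST males, DHS1 being at 0.98. Requiring 50% overlap, averaging peaks within a region, using summit fragments over genome-wide background, and keeping the 30 regions whose nearest start site is a member's (chosen after seeing the data) left the counts past 2-fold as they were. The medians lay near 0 and each changed sign under some setting: with summit fragments over genome-wide background, male over female in CAST went from -0.11 to 0.07 and CAST over B6 in females from 0.17 to -0.03, male over female in B6 was -0.04 at the stricter threshold, and CAST over B6 in males was -0.08 with lists of equal size. Of the regions found in male CAST alone, DHS18 (1.93) and DHS30 (2.07) were near the lowest fold called there (1.90), and DHS21 (4.72) was far above it. On the bound used for DHS2, male over female in CAST was below 1 for DHS14 (0.985), DHS17 (0.985), DHS18 (0.72), DHS29 (0.94) and DHS30 (0.78). At these regions a missing female peak need not be a lower value. No paired analysis was possible because the files used here hold 1 merged list for each group; the single libraries were not analysed here, so none was left out.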
